A study of Homo sapiens with 6 samples.

Results

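The genes described here are the Wnt ligands, the Frizzled receptors, the R-spondins with their LGR receptors, AXIN1 and AXIN2, and the TCF/LEF transcription factors. They were chosen by name alone: every protein-coding gene of the deposited table whose symbol begins with WNT, FZD or RSPO and a digit, or with TCF7, or is LGR4, LGR5, LGR6, LEF1, AXIN1 or AXIN2. This gave 42 genes of 58735 in the table, of which 19951 are protein coding. They comprise 19 WNT genes, 10 FZD genes, 4 RSPO genes, 3 LGR genes, 4 TCF/LEF genes and 2 AXIN genes. The study asked how gene expression differs when ACAT2, an acetyl-CoA acetyltransferase, is depleted in gastric cancer cells. HGC-27, an established line of undifferentiated human gastric carcinoma, was given the vector pSIH-H1-Puro carrying a hairpin against ACAT2 (shACAT2) or the control vector (shNC) for 24 h, and both groups were then kept under puromycin for 7 days. Total RNA of each group was sequenced as 3 libraries, named shNC-1 to shNC-3 and shACAT2-1 to shACAT2-3. Both groups are selected pools of 1 cell line, the labels do not say which hairpin the shACAT2 cells carried, and nothing says that libraries of a group came from separate cultures, so p-values may cover technical spread only.

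Wnt proteins are secreted, lipid-modified ligands that bind Frizzled receptors at the surface of the same or a neighbouring cell. In the canonical branch, the ligand joins a Frizzled to the co-receptors LRP5 and LRP6, the destruction complex built on AXIN and APC stops degrading β-catenin, and β-catenin enters the nucleus and binds TCF/LEF factors at their target genes. AXIN2 and LEF1 are themselves targets and are widely read as gauges of this branch. In the non-canonical branches, ligands such as WNT5A and WNT11 act through Frizzled receptors on small GTPases, cell polarity and calcium without β-catenin. R-spondins bind LGR4, LGR5 or LGR6 and keep the ubiquitin ligases RNF43 and ZNRF3 from removing Frizzled receptors, so they raise the sensitivity of a cell to Wnt. In the stomach, Wnt signalling maintains gland stem cells, some of which are marked by LGR5, and the pathway is often altered in gastric carcinoma.

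Between 14086416 and 16067486 fragments lay on genes in each library. Values are FPKM, which divide the fragments of a gene by its length and by the size of the library, so levels of different genes can be set side by side. The 3 values of a group are given in the order of the replicate numbers, and SE is the standard error of a log2 fold change from limma. ACAT2, the targeted gene, stood at 14.2, 11.7 and 12.7 FPKM in the shNC libraries and at 6.19, 5.46 and 6.05 FPKM in the shACAT2 libraries, a log2 fold change of −1.01 (SE 0.10, limma adjusted p = 0.0059). Its exons share bases with TCP1 and SOD2 on the opposite strand, and the strand setting of the counting is not stated. The library shACAT2-3 stood apart: 7477 genes had a fragment in it and in no other library, against 416 to 657 such genes in each of the other 5 libraries. The pair shNC-2 and shNC-3 had a chi-square per gene of 1.77, against 14.2 to 54.7 for other pairs of libraries of the same group. Few of the listed markers of gastric epithelium were expressed in these cells of an undifferentiated line. Of 6 epithelial markers, EPCAM, KRT18 and KRT19 were near 0, and none reached a mean of 1 FPKM. The gastric markers TFF1, GKN1 and PGC were at 0, and only GATA6 of 8 gastric markers reached 1 FPKM (list sum 4.09 to 4.62 FPKM in shNC and 3.78 to 4.52 FPKM in shACAT2). A list of 6 fibroblast markers summed to 105 to 109 FPKM in shNC and to 181 to 202 FPKM in shACAT2 libraries, with 5 of the 6 at 1 FPKM or above and COL1A1, the largest part of the sum, at a mean of 61.0 and 121 FPKM. PDGFRA of that list lay the other way without overlap, at a mean of 2.46 and 1.56 FPKM. A list of 4 mesenchymal genes summed to 253 to 298 and 349 to 467 FPKM, nearly all of it VIM (mean 263 and 406 FPKM), while CDH2, FN1 and ZEB1 overlapped between the groups. The 6 epithelial markers summed to 0.978 to 1.43 and 1.78 to 2.69 FPKM. Of these, CDH1 was higher in shACAT2 without overlap (mean 0.161 and 0.863 FPKM), while KRT8 and CLDN4 overlapped. None of 4 endothelial markers reached 1 FPKM (list sum at most 0.444 FPKM). The fibroblast sum and VIM differed between the same groups as the Wnt genes below, and their part in those results was not tested. In bulk RNA, fewer cells that express a gene and less of its RNA per cell cannot be told apart.

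HGC-27 cells expressed a restricted set of these genes. With a mean of 1 FPKM in at least 1 group as the limit, 20 of the 42 genes were expressed: WNT3, WNT5A, WNT6, WNT9A, WNT10B and WNT11 among the ligands, 8 of the 10 Frizzled genes (all but FZD8 and FZD10), LGR4, both AXIN genes, and TCF7, LEF1 and TCF7L2. No R-spondin gene reached it. Another 9 genes lay below 1 FPKM but had at least 10 fragments in at least 3 libraries, and the remaining 13 had fewer. FZD4 met the limit through the shNC libraries alone. Within each role a few genes carried most of the signal. In shNC cells, WNT11, WNT10B and WNT5A made up 35.8% ± 1.7, 23.8% ± 0.6 and 19.2% ± 2.0 (SD, n = 3) of the summed FPKM of all ligands. FZD7 and FZD2 made up 28.5% ± 1.6 and 28.0% ± 1.7 (SD, n = 3) of the summed FPKM of all Frizzled genes, so the leading pair did not differ beyond its spread. LEF1 made up 53.1% ± 0.4 and TCF7 36.6% ± 0.2 (SD, n = 3) of the TCF/LEF sum.

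**Figure D1:**
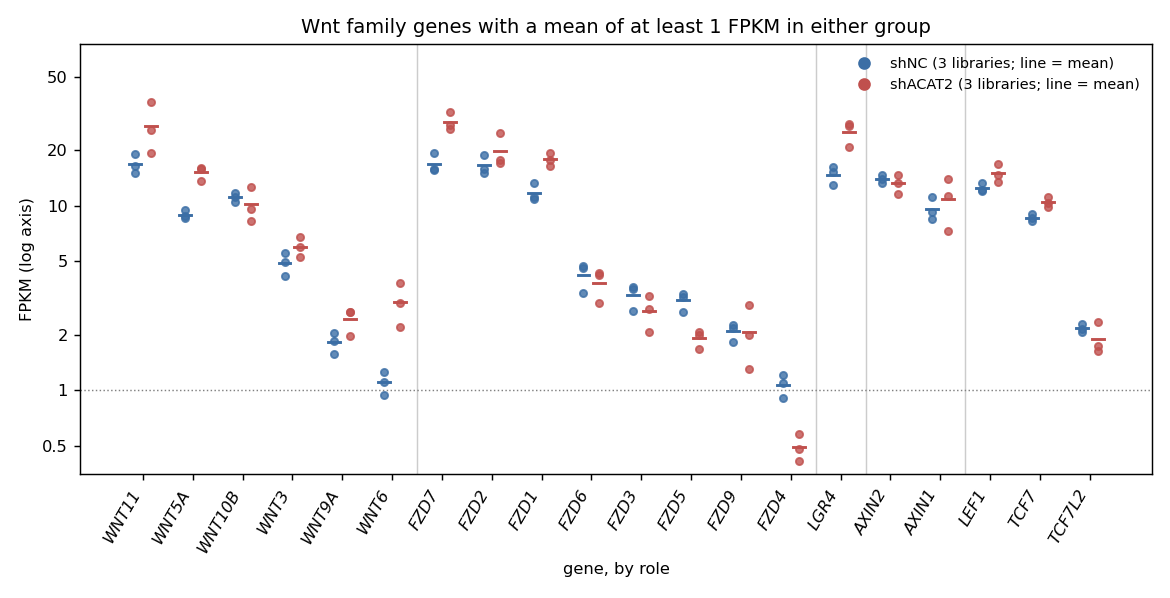
FPKM on a log axis of the 20 genes whose mean reached 1 FPKM in at least 1 group, ordered by role and level, with 1 point per library and a line at the mean of 3 libraries (shNC blue, shACAT2 red, dotted line at 1 FPKM). The 3 shACAT2 points lie above the 3 shNC points for WNT11, WNT5A, WNT6, FZD7, FZD1, LGR4, LEF1 and TCF7, and below them for FZD5 and FZD4.

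Tested with limma on log2(FPKM + 1), 5 of the 20 expressed genes rose in shACAT2 cells at an adjusted p below 0.05 and none fell. Those that rose were the ligands WNT5A and WNT6, the receptors FZD7 and FZD1, and the R-spondin receptor LGR4. Of all 13832 genes tested, 3.30% were called higher and 1.81% lower. At an unadjusted p below 0.05, limma had 9 of the 20, where 23.5% of all genes tested passed. At an adjusted p below 0.05, limma-voom, run on fragments read back from the FPKM of the same 13832 genes, called 5 of the 20 higher and 2 lower, where 4.22% and 4.20% of all genes were called. The log2 fold change was positive for 12 of the 20, with a median of 0.24, beside 52.3% positive and a median of 0.016 over all genes tested. The 3 shACAT2 values lay wholly above the 3 shNC values for 8 of the 20 genes, where 16.2% of all genes tested did so, and wholly below for 2, where 14.5% did. The 2 below, FZD5 and FZD4, were also the 2 that limma-voom called lower. Of these, FZD4 had met the limit of 1 FPKM through the shNC libraries alone. With the replicate number as a block, 6 rose and 1 fell, WNT11 and FZD5 being added, while 7.67% of all genes were called higher and 4.81% lower. With upper-quartile scaling, all genes split into 436 higher and 366 lower in place of 456 and 250, and the Wnt genes into 4 higher and 0 lower, LGR4 being lost. None of the 20 was called by limma when shACAT2-2 or any 1 of the 3 shNC libraries was left out, where 6 to 9 of them had an unadjusted p below 0.05 and the calls over all genes dropped to between 49 and 100 higher. Without shACAT2-3, 4 were called by limma, where 3.32% of all genes were called higher, and LGR4 had an adjusted p of 0.065.

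**Figure D2:**
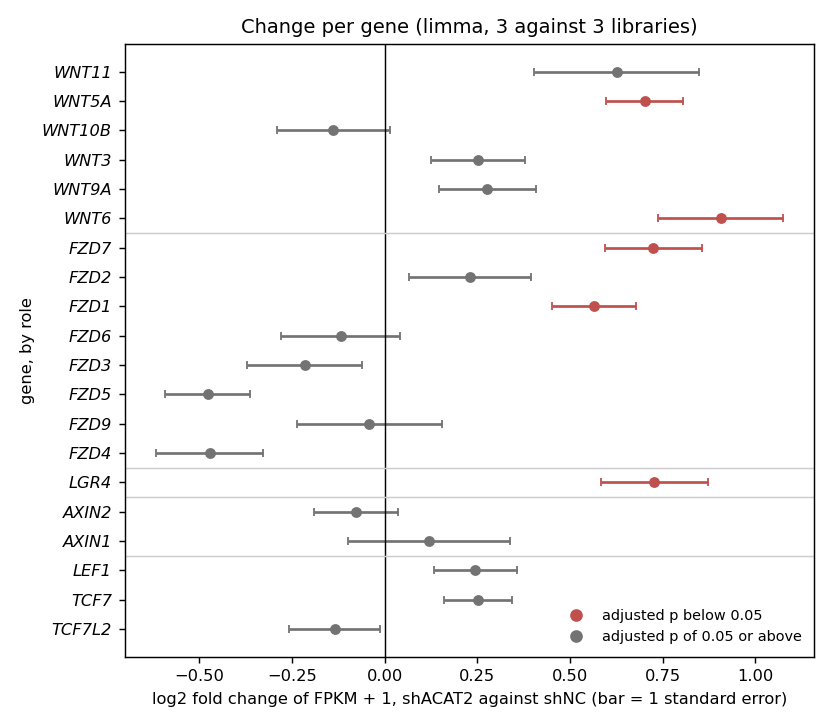
Log2 fold change of FPKM + 1 in shACAT2 against shNC for each of the 20 expressed genes, with bars of 1 standard error from the limma fit on 3 against 3 libraries. The 5 genes with an adjusted p below 0.05, in red, are all to the right of 0, from 0.56 for FZD1 to 0.91 for WNT6, and FZD5 and FZD4 lie farthest to the left.

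Among the ligands, WNT5A and WNT6 rose and WNT10B, the second most abundant in shNC cells, had a small negative fold change. WNT5A, the prototype non-canonical ligand, lies at 55465715 to 55490539 of chromosome 3 (GRCh38, minus strand). It stood at 8.56, 9.43 and 8.73 FPKM in the shNC libraries and at 13.5, 15.9 and 16.1 FPKM in the shACAT2 libraries. The lowest shACAT2 value exceeded the highest shNC value, and the groups did not overlap. The mean rose from 8.91 ± 0.461 to 15.1 ± 1.42 FPKM (SD, n = 3 each), 1.70 times the control, with a log2 fold change of 0.70 (SE 0.10, limma adjusted p = 0.016). WNT5A was the only one of the 20 still called with no filter on low values (limma adjusted p = 0.047). With 1 library left out in turn its limma adjusted p ran from 0.011 to 0.109, the highest without shNC-3.

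WNT6, a ligand known mainly from epithelia, lies on chromosome 2 from 218859821 to 218874233 on the plus strand. It stood at 1.11, 0.942 and 1.26 FPKM in the shNC libraries and at 3.83, 2.97 and 2.19 FPKM in the shACAT2 libraries, which rested on 26 to 99 fragments. All shACAT2 libraries were above all shNC libraries, and shACAT2-3 was the lowest of its group. The mean was 1.10 ± 0.159 FPKM with shNC and 3.00 ± 0.819 FPKM with shACAT2 (SD, n = 3 each), 2.71 times the control. The log2 fold change was 0.91 (SE 0.17, limma adjusted p = 0.032). Since adding 1 to an FPKM near 1 shrinks a fold change, limma-voom on the fragments gave 1.35 (adjusted p = 0.019). With 1 library left out in turn the limma adjusted p of WNT6 ran from 0.020 to 0.139, the highest without shNC-2.

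WNT11, the most abundant ligand and another non-canonical one, stood at 18.9, 16.3 and 15.0 FPKM in the shNC libraries and at 36.4, 25.7 and 19.3 FPKM in the shACAT2 libraries. The groups did not overlap, but the shACAT2 libraries spread widely, and shACAT2-3 lay only just above shNC-1. The log2 fold change was 0.63 (SE 0.22, limma adjusted p = 0.154). With the replicate block the limma adjusted p was 0.045. Limma-voom over a wider set, the genes that had 10 fragments or more in at least 3 libraries, gave an adjusted p of 0.087, and of 0.022 without shACAT2-3, a setting added after the data were seen. WNT11 exons share 204 bases with AP000785.1 on the opposite strand, 8.50% of the gene's exon length.

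The other 3 expressed ligands were not called. WNT10B, a canonical ligand, stood at 11.8, 11.1 and 10.4 FPKM in the shNC libraries and at 12.7, 9.54 and 8.24 FPKM in the shACAT2 libraries, with overlapping groups (log2 fold change −0.14, limma adjusted p = 0.638). WNT3, also canonical, stood at 5.53, 4.16 and 4.96 FPKM in the shNC libraries and at 6.76, 5.94 and 5.29 FPKM in the shACAT2 libraries, where shNC-1 lay above shACAT2-3 (log2 fold change 0.25, limma adjusted p = 0.284). WNT9A stood at 2.04, 1.57 and 1.85 FPKM in the shNC libraries and at 2.65, 2.67 and 1.96 FPKM in the shACAT2 libraries, where shACAT2-3 lay below shNC-1 (log2 fold change 0.28, limma adjusted p = 0.255). In WNT10B, WNT3 and WNT9A the lowest shACAT2 value was that of shACAT2-3.

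Of the abundant ligands WNT11, WNT10B and WNT5A, only WNT10B had a share of the ligand sum without overlap between the groups. A share depends also on the other ligands in the sum. The summed FPKM of the 19 ligands was 50.5, 45.5 and 44.0 in the shNC libraries and 78.6, 65.1 and 55.2 in the shACAT2 libraries, with no overlap. WNT10B took 23.3%, 24.5% and 23.7% of this sum in the shNC libraries and 16.1%, 14.7% and 14.9% in the shACAT2 libraries, although its own level was not called different. The share of WNT11 was 35.8% ± 1.7 in shNC and 40.3% ± 5.7 in shACAT2 cells (SD, n = 3 each), and these ranges overlapped. The share of WNT5A was 19.2% ± 2.0 and 23.6% ± 6.0 (SD, n = 3 each), where shACAT2-1 lay within the shNC range. That of WNT6 was 2.38% ± 0.42 and 4.47% ± 0.46 (SD, n = 3 each), without overlap. Among ligands below 1 FPKM, mean shares in shNC and shACAT2 were 1.28% and 0.31% for WNT3A and 0.64% and 0.28% for WNT2B. They were 0.82% and 1.40% for WNT4 and 0.23% and 0.48% for WNT5B, and none of these 4 overlapped.

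**Figure D3:**
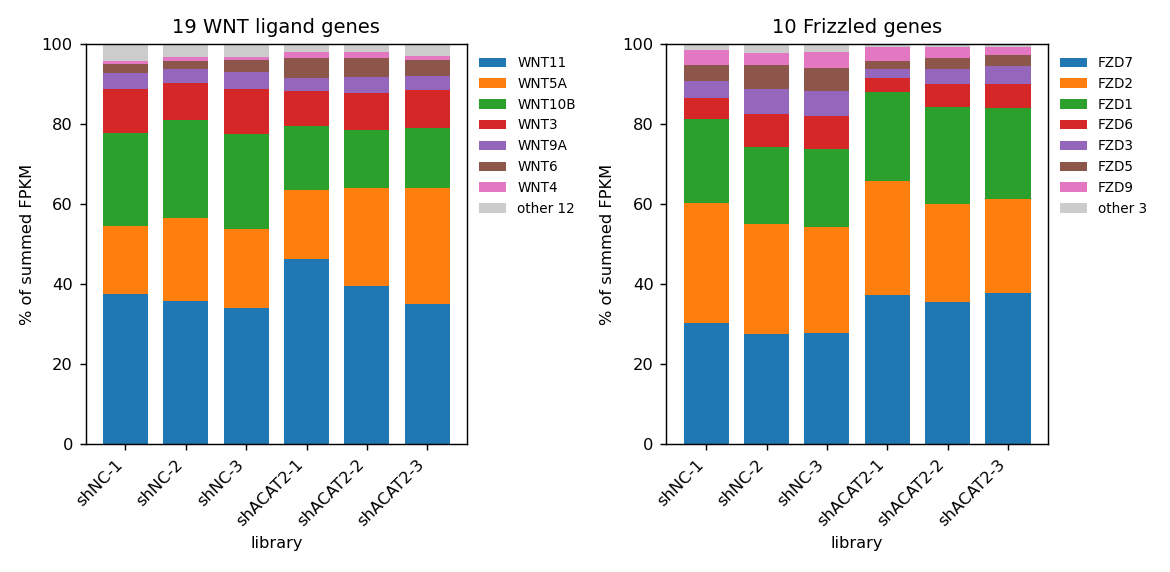
Share in percent of the summed FPKM of the 19 WNT genes (left) and the 10 Frizzled genes (right) in each of the 6 libraries, stacked for the 7 genes with the largest shares and the others together. WNT10B takes 23.3 to 24.5% of the ligand sum in the shNC libraries and 14.7 to 16.1% in the shACAT2 libraries, and FZD7 takes 27.4 to 30.3% and 35.6 to 37.7% of the Frizzled sum.

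Among the Frizzled receptors, FZD7 and FZD1 rose, FZD2 and 3 others had values that overlapped between the groups, and FZD5 and FZD4 had lower values in every shACAT2 library. FZD1, FZD2 and FZD7 form 1 subfamily by sequence, and FZD7 is a Wnt receptor of stem cells in the gut and stomach. FZD7, on chromosome 2 from 202034587 to 202038445 on the plus strand, stood at 19.2, 15.7 and 15.5 FPKM in the shNC libraries and at 32.1, 25.8 and 27.3 FPKM in the shACAT2 libraries. Every shACAT2 library was above every shNC library, and within each group replicate 1 was the highest. The mean rose from 16.8 ± 2.07 to 28.4 ± 3.30 FPKM (SD, n = 3 each), 1.69 times the control, with a log2 fold change of 0.72 (SE 0.13, limma adjusted p = 0.030). With 1 library left out in turn the limma adjusted p of FZD7 ran from 0.037 to 0.152, the highest without shNC-3. In shACAT2 cells FZD7 took 36.8% ± 1.1 of the Frizzled sum against 25.5% ± 2.7 for FZD2 (SD, n = 3 each). In shNC cells the pair had taken 28.5% and 28.0%, and no test compared the 2 genes.

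FZD1, on chromosome 7 from 91264364 to 91271326 on the plus strand, stood at 13.2, 11.1 and 10.9 FPKM in the shNC libraries and at 19.3, 17.6 and 16.5 FPKM in the shACAT2 libraries. The groups were well apart. The mean rose from 11.7 ± 1.29 to 17.8 ± 1.44 FPKM (SD, n = 3 each), 1.52 times the control, with a log2 fold change of 0.56 (SE 0.11, limma adjusted p = 0.040). With 1 library left out in turn the limma adjusted p of FZD1 ran from 0.048 to 0.190, the highest without shNC-3. It was below 0.05 in only 1 of these 6 fits, that without shACAT2-3. FZD2, the closest relative of both, stood at 18.9, 15.8 and 14.9 FPKM in the shNC libraries and at 24.6, 17.7 and 17.0 FPKM in the shACAT2 libraries, where shNC-1 lay above 2 of the shACAT2 libraries (log2 fold change 0.23, limma adjusted p = 0.453). Whether the change of FZD2 differed from that of FZD7 or FZD1 was not tested.

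FZD5 and FZD4 lay the other way. FZD5, a receptor of intestinal Paneth cells and a partner of WNT5A and WNT3A in cell assays, stood at 2.64, 3.34 and 3.22 FPKM in the shNC libraries and at 1.68, 2.00 and 2.07 FPKM in the shACAT2 libraries, without overlap. Its log2 fold change was −0.48 (SE 0.11, limma adjusted p = 0.063), and with the replicate block the limma adjusted p was 0.033. FZD4, the receptor for norrin as well as Wnt, stood at 0.912, 1.20 and 1.10 FPKM in the shNC libraries and at 0.580, 0.481 and 0.415 FPKM in the shACAT2 libraries, also without overlap. Its log2 fold change was −0.47 (SE 0.14, limma adjusted p = 0.113). On the fragments, where no constant is added, limma-voom gave −0.73 for FZD5 (adjusted p = 0.039) and −1.17 for FZD4 (adjusted p = 0.012). FZD4 exons share 1399 bases, 18.95% of their length, with PRSS23 on the opposite strand, and the strand setting of the counting is not stated. How far PRSS23 affects the FZD4 value was not tested, and the shared length does not bound the error.

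The last 3 expressed Frizzled genes did not separate the groups. FZD6, linked to planar cell polarity, stood at 3.36, 4.73 and 4.58 FPKM in the shNC libraries and at 2.97, 4.19 and 4.30 FPKM in the shACAT2 libraries (log2 fold change −0.12, limma adjusted p = 0.704). FZD3, of the same subfamily, stood at 2.68, 3.61 and 3.55 FPKM in the shNC libraries and at 2.07, 2.77 and 3.25 FPKM in the shACAT2 libraries (log2 fold change −0.22, limma adjusted p = 0.449). Replicate 1 was the lowest of its group for FZD3, FZD6 and FZD5, where it was the highest for FZD7, FZD1 and FZD2. FZD9 stood at 2.26, 1.82 and 2.18 FPKM in the shNC libraries and at 2.90, 1.98 and 1.31 FPKM in the shACAT2 libraries, the shACAT2 values enclosing those of shNC (log2 fold change −0.04, limma adjusted p = 0.921). Summed over the 10 Frizzled genes, FPKM came to 63.2, 57.3 and 56.0 in the shNC libraries and 86.4, 72.6 and 72.3 in the shACAT2 libraries.

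LGR4 rose while its ligands stayed below 1 FPKM. LGR4, the most widely expressed of the R-spondin receptors, lies on chromosome 11 from 27365961 to 27472775 on the minus strand. It stood at 12.9, 16.1 and 15.1 FPKM in the shNC libraries and at 20.7, 27.0 and 27.7 FPKM in the shACAT2 libraries, and replicate 1 was the lowest of each group. The groups did not overlap, and the mean rose from 14.7 ± 1.63 to 25.1 ± 3.84 FPKM (SD, n = 3 each), 1.71 times the control. The log2 fold change was 0.73 (SE 0.15, limma adjusted p = 0.039). The limma adjusted p of LGR4 was 0.075 with upper-quartile scaling and 0.069 with scaling to the library total, at log2 fold changes of 0.67 and 0.68. With 1 library left out in turn it ran from 0.017 to 0.153, the highest without shNC-3. Limma-voom over the wider set gave 0.042, and 0.070 in the added setting without shACAT2-3.

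LGR5, the stem cell receptor, had 1, 0 and 0 fragments in the shNC libraries and 2, 0 and 1 in the shACAT2 libraries, and LGR6 had at most 12 fragments in any library. A count of 0 for LGR5 allows a level of up to 0.0381 FPKM, counting error only. Of the R-spondins, the secreted ligands of these receptors, RSPO4 had 29, 29 and 16 fragments in the shNC libraries and 16, 18 and 17 in the shACAT2 libraries (limma-voom log2 fold change −0.46, adjusted p = 0.460). RSPO2 had 12, 9 and 4 fragments in the shNC libraries and 17, 13 and 14 in the shACAT2 libraries (limma-voom log2 fold change 0.91, adjusted p = 0.250). RSPO1 and RSPO3 had at most 7 fragments in a library, RSPO3 in shACAT2-3 alone. All 4 R-spondins together summed to between 0.455 and 0.89 FPKM in any library, below the level of LGR4 in each.

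AXIN2, LEF1 and TCF7 did not pass the test in either direction. AXIN2, the feedback target of β-catenin, stood at 14.6, 13.9 and 13.2 FPKM in the shNC libraries and at 14.7, 13.3 and 11.6 FPKM in the shACAT2 libraries. The values overlapped throughout, and the means were 13.9 ± 0.701 and 13.2 ± 1.59 FPKM (SD, n = 3 each), with a log2 fold change of −0.08 (SE 0.11, limma adjusted p = 0.727). Leaving out 1 library moved it between −0.15 and 0.0084, so even its sign was not fixed, and 1316 of its exon bases (25.2%) are shared with AC004805.1 on the same strand. AXIN1, the constitutive scaffold of the destruction complex, stood at 11.2, 8.44 and 9.27 FPKM in the shNC libraries and at 13.8, 11.3 and 7.33 FPKM in the shACAT2 libraries (log2 fold change 0.12, limma adjusted p = 0.785). The shACAT2 libraries held both the highest and the lowest AXIN1 value.

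LEF1 and TCF7 had slightly higher values in each shACAT2 library than in any shNC library, by less than the test could call. LEF1 stood at 13.2, 12.2 and 11.9 FPKM in the shNC libraries and at 14.7, 13.4 and 16.9 FPKM in the shACAT2 libraries (log2 fold change 0.24, SE 0.11, limma adjusted p = 0.243). TCF7 stood at 9.05, 8.54 and 8.21 FPKM in the shNC libraries and at 11.1, 9.82 and 10.4 FPKM in the shACAT2 libraries (log2 fold change 0.25, SE 0.09, limma adjusted p = 0.160). Both factors bind β-catenin and occur also in forms that lack the binding domain and repress, which FPKM per gene cannot separate. TCF7L2, the main TCF of normal gut epithelium, stood at 2.14, 2.30 and 2.08 FPKM in the shNC libraries and at 1.74, 1.63 and 2.33 FPKM in the shACAT2 libraries, with shACAT2-3 above all shNC libraries (log2 fold change −0.14, limma adjusted p = 0.562). TCF7L1, usually a repressor, stood at 0.311, 0.154 and 0.263 FPKM in the shNC libraries and at 0.224, 0.232 and 0.347 FPKM in the shACAT2 libraries, with overlapping groups (limma-voom log2 fold change 0.10, adjusted p = 0.899). LEF1 kept the lead of its family in both groups, at 53.1% ± 0.4 and 54.2% ± 1.9 (SD, n = 3 each) of the TCF/LEF sum.

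The 22 genes below 1 FPKM in both group means included 13 ligands, among them the classical canonical ligands WNT1 and WNT3A. Of these 22 genes, 9 had enough fragments for limma-voom over the wider set of 16299 genes. That fit tested 29 of the 42 genes and called 5 higher, the same 5 as above, and 3 lower (FZD4, FZD5 and WNT3A), where 3.88% of all genes were called higher and 3.86% lower. WNT3A, the ligand most used to activate β-catenin in the laboratory, had 31, 25 and 29 fragments in the shNC libraries and 10, 10 and 8 in the shACAT2 libraries. The groups were far apart although the counts were small, and the mean was 0.597 ± 0.0849 FPKM with shNC and 0.204 ± 0.0214 FPKM with shACAT2 (SD, n = 3 each). Its limma-voom log2 fold change was −1.54 (SE 0.30, adjusted p = 0.020). On log2(FPKM + 1) it lay under the filter, and limma with no filter gave −0.41 (adjusted p = 0.268).

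WNT4, WNT5B and WNT2B separated the groups without passing the threshold in limma-voom over the wider set. With WNT3A, 4 of the 9 genes below 1 FPKM in that fit did not overlap. The share of all 16299 genes that did not overlap was not counted. WNT4 had 28, 30 and 26 fragments in the shNC libraries and 84, 82 and 36 in the shACAT2 libraries (limma-voom log2 fold change 1.18, adjusted p = 0.070). WNT5B, the closest relative of WNT5A, had 10, 9 and 3 fragments in the shNC libraries and 23, 22 and 19 in the shACAT2 libraries (limma-voom log2 fold change 1.65, adjusted p = 0.060). WNT4 was much lower in shACAT2-3 than in the other shACAT2 libraries, and limma without shACAT2-3 gave a log2 fold change of 0.64 (adjusted p = 0.079). Limma-voom in the added setting without shACAT2-3 called WNT4 higher, where 4.76% of all genes were called higher. WNT2B had 58, 57 and 68 fragments in the shNC libraries and 34, 37 and 37 in the shACAT2 libraries (limma-voom log2 fold change −0.75, adjusted p = 0.058), and 21.2% of its exon bases are shared with ST7L on the opposite strand. WNT10A had 4 to 24 fragments per library and WNT8B 5 to 11, with overlapping groups and limma-voom adjusted p of 0.518 and 0.664.

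The remaining 13 genes, FZD8, FZD10, LGR5, LGR6, RSPO1, RSPO3, WNT1, WNT2, WNT7A, WNT7B, WNT8A, WNT9B and WNT16, reached at most 0.181 FPKM. A fragment was seen in every library for 33 of the 42 genes and in 1 library only for 5. Of these 5, 4 were seen in shACAT2-3 alone: WNT9B with 9 fragments, FZD10 and RSPO3 with 3 each and WNT8A with 2. This is the library in which 7477 genes were seen alone, so no difference between groups was read from them. WNT1 had 1 fragment, in shNC-2. Where a gene had 0 fragments, 3 counts allow a level of up to 0.0603 FPKM for WNT9B, 0.0609 for FZD10, 0.0629 for RSPO3, 0.0957 for WNT8A and 0.148 for WNT1.

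**Figure D4:**
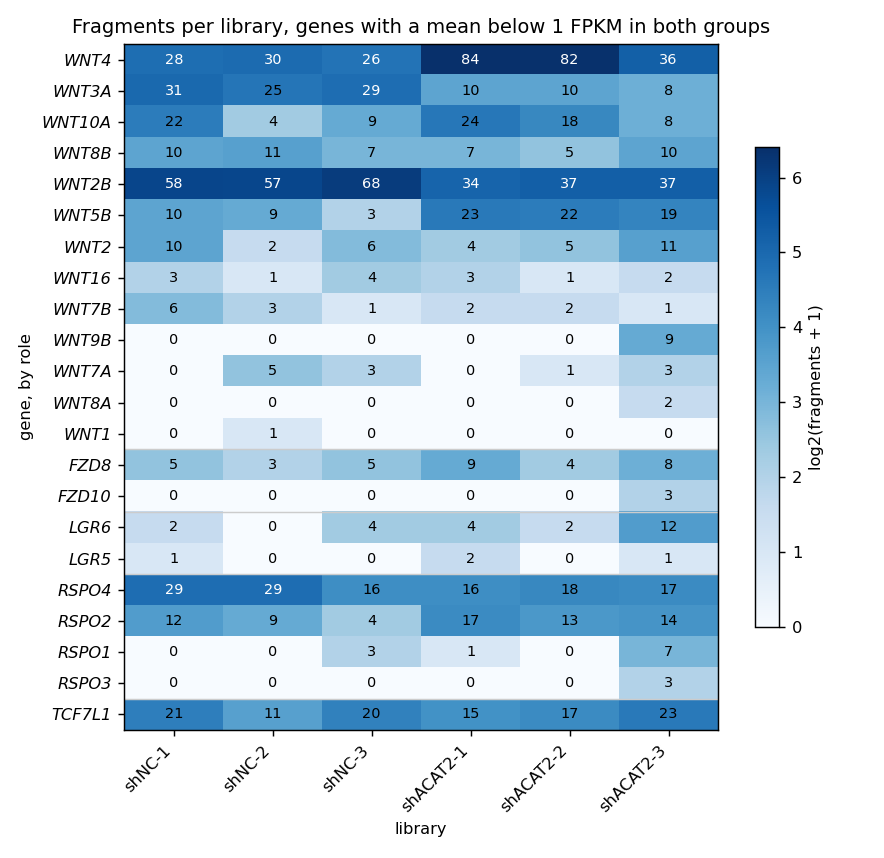
Fragments in each of the 6 libraries for the 22 genes with a mean below 1 FPKM in both groups, ordered by role, with the shade giving log2(fragments + 1). WNT3A and WNT2B have fewer fragments in each shACAT2 library than in any shNC library, WNT4 and WNT5B have more, and WNT9B, WNT8A, FZD10 and RSPO3 have fragments in shACAT2-3 alone.

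Several WNT genes lie beside each other in the genome, and neighbours did not share their levels. WNT6 and WNT10A lie 6.13 kb apart on chromosome 2 on the same strand, yet WNT6 rose to 3.00 FPKM while WNT10A stayed at or below 0.463 FPKM in every library. WNT10B, at 8.24 to 12.7 FPKM, lies 6.69 kb from WNT1 on chromosome 12, which had 1 fragment in all. WNT3, at 4.16 to 6.76 FPKM, lies 46 bases from WNT9B on chromosome 17, which had fragments in shACAT2-3 alone. WNT9A, at 1.57 to 2.67 FPKM, lies 59.2 kb from WNT3A on chromosome 1, which stayed at or below 0.691 FPKM.

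The promoters of the genes that rose are shown so that the base composition and any binding motifs of the genes called can be seen. They are the 150 bases before the RefSeq start of FZD1, LGR4, WNT5A and WNT6 on GRCh38.p14, written in the direction of transcription with CG dinucleotides in capitals. They lie at chr7:91264283-91264432 on the plus strand (FZD1), chr11:27472791-27472940 on the minus strand (LGR4), chr3:55487307-55487456 on the minus strand (WNT5A) and chr2:218859655-218859804 on the plus strand (WNT6). The other gene that rose is FZD7.
FZD1: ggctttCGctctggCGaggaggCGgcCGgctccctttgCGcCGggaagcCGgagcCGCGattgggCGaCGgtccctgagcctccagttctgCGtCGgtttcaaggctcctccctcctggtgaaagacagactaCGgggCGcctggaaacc
LGR4: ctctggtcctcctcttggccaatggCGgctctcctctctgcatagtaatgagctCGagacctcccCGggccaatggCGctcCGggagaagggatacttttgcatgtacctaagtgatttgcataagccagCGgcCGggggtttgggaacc
WNT5A: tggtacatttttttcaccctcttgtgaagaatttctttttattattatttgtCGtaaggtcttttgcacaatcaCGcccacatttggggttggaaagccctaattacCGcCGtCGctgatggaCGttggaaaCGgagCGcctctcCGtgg
WNT6: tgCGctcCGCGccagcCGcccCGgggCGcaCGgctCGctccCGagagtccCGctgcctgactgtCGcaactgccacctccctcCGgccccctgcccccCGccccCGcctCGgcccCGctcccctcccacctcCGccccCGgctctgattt

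These promoters were of unlike composition. The WNT6 window held 78.7% G or C and 18 CG dinucleotides and the FZD1 window 67.3% and 15. The LGR4 window, at 58.0% and 7, was close to the median of all 35116 promoters over the same 150 bases (60% and 7), and the WNT5A window had 45.3% and 9. The RefSeq start used for WNT5A lies 3233 bases inside the gene as the deposited table draws it, so it is not the 5′ end of the gene measured here. The TCF/LEF motif CTTTGAT and the TEAD motif CATTCC, which do not overlap each other, were searched on both strands from 250 bases before to 50 bases after each start. Neither was found in any of these 4 promoters. CTTTGAT was found in none of the 31 promoters available for the 42 genes and in 2.62% of all promoters, and CATTCC in 1 of the 31 (WNT16) and in 14.0% of all promoters. A match or its absence in this window says nothing of binding.

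Beyond the named families, a hand-written list of 89 other genes of Wnt signalling was examined, of which 77 were tested. Limma called 3 of them higher and 7 lower, beside the 3.30% and 1.81% of all genes tested given above, and 29 had an unadjusted p below 0.05, as 23.5% of all genes did. The log2 fold change was positive for 45 of the 77, with a median of 0.06. With the replicate block, 10 were called higher and 11 lower, where 7.67% and 4.81% of all genes were. Calls that limma gained with the block included CTNNBIP1 (log2 fold change 0.57, adjusted p = 0.046) and GPC4 (0.39, 0.049) higher and TNKS (−0.50, 0.041) lower. The other calls gained are named below.

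At the membrane, TSPAN12, a tetraspanin that assists FZD4 in norrin signalling, rose the most. It stood at 5.74, 5.77 and 6.30 FPKM in the shNC libraries and at 15.7, 15.0 and 14.8 FPKM in the shACAT2 libraries (log2 fold change 1.22, SE 0.09, limma adjusted p = 0.0032). Its groups were far apart, and it stayed below an adjusted p of 0.05 whichever library was left out. The co-receptor LRP5 had a mean of 15.1 FPKM with shNC and 11.1 FPKM with shACAT2 (log2 fold change −0.42, limma adjusted p = 0.104, or 0.032 with the replicate block), and LRP6 had a log2 fold change of −0.31 (limma adjusted p = 0.460). The ubiquitin ligase ZNRF3, which R-spondin and LGR4 restrain, had 9.16 and 7.94 FPKM (log2 fold change −0.18, limma adjusted p = 0.237), and its relative RNF43 lay at 0.159 and 0.102 FPKM, under the filter. Of the genes that Wnt-producing cells need, the carrier WLS had 30.4 and 34.4 FPKM (log2 fold change 0.18, limma adjusted p = 0.399), and the acyltransferase PORCN, at 0.956 and 0.833 FPKM, lay under the filter.

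In the cytoplasm, the scaffold or adaptor genes DACT1, DIXDC1 and AMER1 fell. DACT1, a binding partner of Dishevelled, stood at 3.11, 2.71 and 2.82 FPKM in the shNC libraries and at 1.09, 0.925 and 0.891 FPKM in the shACAT2 libraries (log2 fold change −0.98, limma adjusted p = 0.0071). DACT1 met the limit of 1 FPKM through the shNC libraries alone, with means of 2.88 and 0.967 FPKM. Limma-voom over the wider set, where DACT1 had 60 to 218 fragments per library, gave −1.62 (adjusted p = 0.00084). DIXDC1, a DIX-domain activator of the pathway, stood at 6.70, 6.20 and 6.95 FPKM in the shNC libraries and at 3.33, 4.36 and 4.29 FPKM in the shACAT2 libraries (log2 fold change −0.61, limma adjusted p = 0.030). AMER1, a scaffold that binds APC and β-catenin, stood at 9.85, 8.75 and 9.33 FPKM in the shNC libraries and at 6.05, 6.37 and 6.34 FPKM in the shACAT2 libraries (log2 fold change −0.51, limma adjusted p = 0.025). None of these 3 overlapped between the groups. DACT3, the paralog of DACT1, lay the other way without overlap, at a mean of 1.39 and 2.84 FPKM (log2 fold change 0.68, limma adjusted p = 0.066, or 0.027 with the replicate block). The Dishevelled genes DVL1, DVL2 and DVL3, APC and GSK3B had log2 fold changes between −0.05 and 0.12, with limma adjusted p between 0.732 and 0.903.

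In the nucleus, BCL9, the adaptor that joins β-catenin to Pygopus, fell from 16.8, 15.6 and 15.5 FPKM in the shNC libraries to 7.92, 8.57 and 8.42 FPKM in the shACAT2 libraries (log2 fold change −0.87, limma adjusted p = 0.0058). CTNNB1, which encodes β-catenin, had a mean of 16.3 FPKM with shNC and 18.1 FPKM with shACAT2 (log2 fold change 0.14, limma adjusted p = 0.376). Of 12 target genes tested, CD44 alone was called, where 3.30% of all genes tested were called higher and 1.81% lower. It stood at 3.66, 3.26 and 3.35 FPKM in the shNC libraries and at 6.93, 7.10 and 7.21 FPKM in the shACAT2 libraries (log2 fold change 0.87, limma adjusted p = 0.0048). CD44, a hyaluronan receptor, was listed as a target but has many other regulators. With the replicate block, limma also called the targets BAMBI (log2 fold change 0.72, adjusted p = 0.021), JUN (0.56, 0.032) and EPHB3 (0.34, 0.047) higher. Limma-voom over the wider set also called BAMBI higher (adjusted p = 0.026) and EPHB2 lower (adjusted p = 0.043). MYC had 136 and 157 FPKM (log2 fold change 0.19, limma adjusted p = 0.452) and CCND1 60.4 and 68.3 FPKM (log2 fold change 0.18, limma adjusted p = 0.363), so these 2 targets and AXIN2 were not called.

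Of the 18 planar polarity and non-canonical genes tested, 3 fell and 1 rose, where 1.81% of all genes tested were called lower and 3.30% higher. The 3 that fell are core components of planar cell polarity at the membrane. VANGL1 stood at 5.42, 4.80 and 4.45 FPKM in the shNC libraries and at 2.17, 2.50 and 2.89 FPKM in the shACAT2 libraries (log2 fold change −0.75, limma adjusted p = 0.019). Its paralog VANGL2 stood at 5.52, 4.91 and 4.62 FPKM in the shNC libraries and at 3.31, 2.67 and 3.12 FPKM in the shACAT2 libraries (log2 fold change −0.58, limma adjusted p = 0.030). Both VANGL genes lay in separate ranges in the 2 groups. CELSR2, an atypical cadherin, stood at 6.82, 6.26 and 6.23 FPKM in the shNC libraries and at 3.86, 4.12 and 3.82 FPKM in the shACAT2 libraries (log2 fold change −0.59, limma adjusted p = 0.015). RHOA, a small GTPase of cytoskeletal control that also acts outside Wnt signalling, stood at 137, 115 and 113 FPKM in the shNC libraries and at 235, 188 and 222 FPKM in the shACAT2 libraries (log2 fold change 0.82, limma adjusted p = 0.025). With the replicate block, limma also called RAC1 higher (adjusted p = 0.034) and INVS and NFATC3 lower (adjusted p = 0.034 and 0.046). Limma-voom over the wider set also called RAC1 higher (adjusted p = 0.049) and CELSR1 and CELSR3 lower (adjusted p = 0.029 and 0.014). With 1 library left out in turn, CD44 and TSPAN12 were called in all 6 limma fits, and BCL9 and DACT1 in 5 of the 6. AMER1, CELSR2, DIXDC1, VANGL1, VANGL2 and RHOA were called in only 2 of the 6. All 7 genes that fell, and RHOA, were among those that lost their call without shNC-3.

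**Figure D5:**
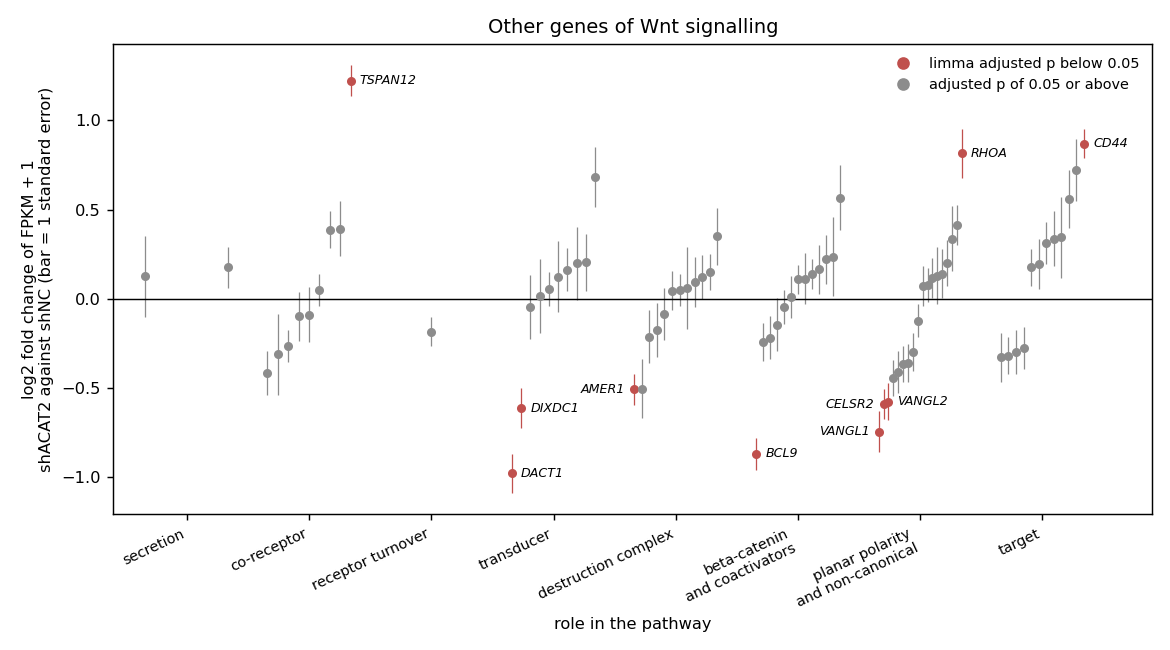
Log2 fold change of FPKM + 1 in shACAT2 against shNC for the 77 other Wnt signalling genes tested, by role in the pathway, with bars of 1 standard error from the limma fit. The 10 genes with an adjusted p below 0.05 are named: TSPAN12, CD44 and RHOA lie above 0, and BCL9, DACT1, DIXDC1, AMER1, VANGL1, VANGL2 and CELSR2 below it.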

How the data were processed

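The deposited table holds FPKM, as the authors computed them, for 58735 genes and 6 libraries. The submitters' processing notes name HISAT2 2.0.5, featureCounts 1.5.0-p3, DESeq2 1.20.0 and hg38. All 58735 gene lengths and coordinates equal those of GENCODE release 29. From the FPKM steps and lengths, whole fragments were recovered for 100% of values (tolerance 0.05 of a fragment). Groups and replicate numbers came from the sample labels.

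Genes whose mean reached 1 FPKM in at least 1 group were tested with limma-trend (limma 3.58.1 in R 4.3.3) on log2(FPKM + 1), shACAT2 against shNC, with Benjamini-Hochberg adjustment over all 13832 genes and a threshold of 0.05. Fold changes on this scale understate those of low genes. Genes with at least 10 fragments in 3 libraries were also tested with limma-voom on the fragments, without added constant other than voom's own. The methods were tested on simulated data. Python 3.11.15, numpy 2.4.6 and pandas 2.3.3 were used elsewhere.

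Values are given per library for family genes that reached this mean or had at least 10 fragments in each library, and of the other Wnt genes for those past the threshold and 14 fixed genes. WNT3A, WNT5B, RSPO2, LGR5 and the genes seen in 1 library were added after their values were seen. The genes, marker lists and pathway list were chosen with earlier results of these data known. The result of 1 marker list is not reported here.

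Deviations from the group mean correlated between libraries of equal replicate number (0.445, 0.126 and 0.171), and all were above 0.1, so blocked limma values are given where they change a call. Deviations within a group sum to 0, and shNC-2 and shNC-3 were close to each other, so these correlations are not independent. The pairs shNC-2 with shACAT2-3 (0.198) and shNC-3 with shACAT2-2 (0.141) correlated about as much, and p-values are from the fit without the block unless stated. Alternatives beside the block were other scalings, filters, a pseudocount of 0.1, a log2 fold change limit of 1 with an unadjusted p, shNC-2 averaged with shNC-3, and each library left out. Intervals for a count of 0 cover counting error only. Promoter sequences are from RefSeq (GRCh38.p14), matched by symbol for 31 of the 42 genes.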

Additional observations from a re-analysis of the deposited data

How the results depend on the processing

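The 5 Wnt family genes called higher kept a positive log2 fold change in all 15 alternatives not added later, but they did not keep their calls. Every shACAT2 value of these genes lay above every shNC value. Leaving out or averaging libraries, the block, and another filter or pseudocount therefore could not turn the sign. In place of 5 higher and 0 lower, limma called 1 higher with no filter (0.36% of all genes). Averaging shNC-2 with shNC-3 gave 0 higher (7 at an unadjusted p below 0.05), where 0.46% of all genes were called higher. Leaving out 1 library gave 0 to 4 higher (0.35% to 3.76% of all genes). Over genes with 10 or more fragments in each library limma called 2 lower (2.97% of all genes). Limma-voom called 2 lower with the genes of the 1 FPKM limit (4.20% of all genes) and 3 lower with the wider set (3.86%). With a log2 fold change above 1 and an unadjusted p below 0.05, 0 were higher on log2(FPKM + 1), 1 with a pseudocount of 0.1, and 3 higher and 2 lower with limma-voom over the wider set. Over all 13832 genes that limit gave 136 higher on log2(FPKM + 1) and 267 with a pseudocount of 0.1. Over the wider set of 16299 genes limma-voom gave 343 higher and 407 lower. The replicate block gave 1 lower (4.81% of all genes). Over the wider set with limma-voom, added after the data were seen, the block gave 8 higher and 5 lower of 29 (11.1% and 13.8% of all genes). Without shACAT2-3, also added, limma-voom gave 6 higher, with WNT4 and WNT11 gained and LGR4 lost, and 3 lower of 28 (4.76% and 4.90% of all genes).

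Of the 77 other Wnt genes tested, 3 were higher and 7 lower (3.30% and 1.81%). Here and below, shares in brackets are over all genes tested in that fit. The count higher was 5 over genes with 10 or more fragments in each library (4.21%). It was 6 in both limma-voom fits, of 77 and 84 tested (4.22% and 3.88%), and 10 with the replicate block (7.67%). With 1 library left out it was 2 to 6 (0.35% to 3.76%), and with the fold limit 1 (136 of 13832 genes). In the added fits it was 8 of 83 without shACAT2-3 (4.76%) and 14 of 84 with the block (11.1%). The count lower was 2 with no filter (0.15%). It was 11 in both limma-voom fits (4.20% and 3.86%) and 11 with the replicate block (4.81%). Averaging shNC-2 with shNC-3 gave 1 lower (0.14%). Leaving out 1 library gave 0 to 8 lower (0.10% to 2.44%). The 0 was without shNC-3 (0.10%), where 20 had an unadjusted p below 0.05 in limma. The fold limit gave 0 lower (71 of 13832 genes). In the added fits 12 were lower without shACAT2-3 (4.90%) and 23 with the block (13.8%). With 1 library left out, the log2 fold change ranged from −0.15 to 0.0084 for AXIN2, from −0.23 to 0.15 for FZD9 (0.12 with limma-voom without shACAT2-3), from −0.24 to 0.015 for FZD6 and from −0.064 to 0.35 for AXIN1. The cause of these differences was not tested, except that fewer libraries or a wider set of genes enter some of the fits.

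Each library held 14086416 to 16067486 fragments, so genes below 1 FPKM rest on few fragments. With 3 libraries a group, genes that missed the threshold are not shown to be equal.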
